A study of Mus musculus with 6 samples.

Results

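The splicing regulators described here are the genes for SR proteins and their relatives Tra2a and Tra2b, for heterogeneous nuclear ribonucleoproteins (hnRNPs), for the Ptbp proteins, for the Sf3a and Sf3b subunits of the U2 small nuclear ribonucleoprotein, and for the Mbnl, Celf and Rbfox proteins. They were chosen by name: every probe set whose annotated symbol starts with Srsf, Tra2, Hnrnp, Ptbp, Sf3a, Sf3b, Mbnl, Celf or Rbfox was taken, whatever its values. The rule found 180 of 45101 probe sets, for 55 of 18193 named genes. The families differed in size, with 58 probe sets for 19 hnRNP genes, 44 for 12 SR and Tra2 genes, 22 for 6 Sf3b genes, 18 for 6 Celf genes, 11 each for 3 Mbnl and 3 Rbfox genes, and 8 each for 3 Ptbp and 3 Sf3a genes.

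Mouse embryonic stem (ES) cells of the E14 line, on the 129P2/OlaHsd background and carrying a Venus reporter of Msgn1 (Msgn1RepV), were differentiated toward paraxial mesoderm, the tissue that forms the somites. The 2 groups were Venus-positive cells sorted on day 4 and Venus-positive cells sorted on day 3, each with 3 biological replicates and 1 array per replicate. Both groups had been kept on gelatin in serum-containing medium with 0.5% DMSO, 10 ng/mL R-spondin3, which raises Wnt signalling, and 200 ng/mL Noggin, which blocks bone morphogenetic proteins. All cells came from 1 reporter line, and Msgn1, a gene of the presomitic mesoderm, was itself the gate, so each array describes reporter-positive cells and not the whole culture.

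Splicing removes introns from a pre-mRNA, and the spliceosome finds the branch point of each intron through the SF3a and SF3b complexes. SR proteins bind mainly exonic enhancers and favour exon inclusion, many hnRNPs bind silencers and favour skipping, and the balance between them sets alternative exons. The Mbnl, Celf, Ptbp and Rbfox proteins regulate alternative exons, and some are tissue-restricted while others, such as Celf1, are broadly expressed. Mbnl proteins favour the exon choices of differentiated tissue over those of ES cells, and Celf proteins oppose Mbnl proteins on many exons of heart and muscle. Ptbp1 holds back neuronal exons, and Rbfox proteins act in neurons and muscle. Many SR and hnRNP genes also make transcripts with a poison exon or a retained intron, which tune the level of their own protein.

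The promoters of 5 genes are shown because members of a family moved in opposite directions there (Mbnl3 against Mbnl2, Ptbp1 against Ptbp2) or because the gene held the member with the greatest rise (Tra2a). Each window runs from 250 bases before to 50 bases after the start of a RefSeq transcript in the GRCm38.p6 assembly and is printed along the gene's strand. The windows are chrX:51205941-51206240 on the minus strand for Mbnl3, chr14:120275419-120275718 on the plus strand for Mbnl2, chr10:79854182-79854481 on the plus strand for Ptbp1, chr3:119783339-119783638 on the minus strand for Ptbp2 and chr6:49264003-49264302 on the minus strand for Tra2a. Capitals mark matches on either strand to 5 motifs, the GC box GGGCGG, the CCAAT box CCAAT, the TATA box TATAAA, the cyclic AMP response element TGACGTCA and the YY1 core AAGATGG.
Mbnl3: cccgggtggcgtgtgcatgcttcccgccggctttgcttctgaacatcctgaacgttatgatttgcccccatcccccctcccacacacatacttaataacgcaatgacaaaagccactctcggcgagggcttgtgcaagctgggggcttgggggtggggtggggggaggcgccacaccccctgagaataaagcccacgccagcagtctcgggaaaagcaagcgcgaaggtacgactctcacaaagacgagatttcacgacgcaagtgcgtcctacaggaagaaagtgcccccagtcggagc
Mbnl2: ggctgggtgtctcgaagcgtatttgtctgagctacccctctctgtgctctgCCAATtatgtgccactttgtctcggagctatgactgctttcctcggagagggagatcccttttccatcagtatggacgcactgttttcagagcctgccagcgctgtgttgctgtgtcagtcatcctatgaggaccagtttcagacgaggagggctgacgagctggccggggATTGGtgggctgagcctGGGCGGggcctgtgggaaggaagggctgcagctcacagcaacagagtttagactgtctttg
Ptbp1: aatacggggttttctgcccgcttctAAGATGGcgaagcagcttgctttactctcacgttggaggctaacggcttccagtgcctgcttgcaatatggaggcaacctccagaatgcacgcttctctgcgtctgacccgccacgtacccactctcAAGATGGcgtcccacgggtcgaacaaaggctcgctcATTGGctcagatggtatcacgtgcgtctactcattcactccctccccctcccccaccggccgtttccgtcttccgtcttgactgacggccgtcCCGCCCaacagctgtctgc
Ptbp2: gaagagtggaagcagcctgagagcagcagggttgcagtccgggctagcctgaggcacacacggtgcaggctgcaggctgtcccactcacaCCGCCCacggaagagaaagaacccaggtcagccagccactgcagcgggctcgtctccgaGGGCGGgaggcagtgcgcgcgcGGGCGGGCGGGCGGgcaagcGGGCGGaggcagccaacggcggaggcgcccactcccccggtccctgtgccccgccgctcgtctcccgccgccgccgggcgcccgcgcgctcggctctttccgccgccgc
Tra2a: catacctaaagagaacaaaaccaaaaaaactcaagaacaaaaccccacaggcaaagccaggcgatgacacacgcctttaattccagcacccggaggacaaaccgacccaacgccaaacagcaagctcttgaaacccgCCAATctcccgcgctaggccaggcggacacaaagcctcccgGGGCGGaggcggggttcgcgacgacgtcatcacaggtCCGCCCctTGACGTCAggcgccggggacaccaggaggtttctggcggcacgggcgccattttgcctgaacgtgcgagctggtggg
The Ptbp2 window held 6 GC boxes, some of them sharing bases, in 74.7% G and C, and the Mbnl3 window held none of the 5 motifs in 59.0% G and C. The Mbnl2 window held 1 GC box and 2 CCAAT boxes, the Ptbp1 window 1 GC box, 1 CCAAT box and 2 YY1 cores, and the Tra2a window 2 GC boxes, 1 CCAAT box and 1 cyclic AMP response element. Over 32851 RefSeq windows of the same length, 35.7% held a GC box, 37.4% a CCAAT box, 13.6% a TATA box, 1.79% the cyclic AMP response element and 6.34% a YY1 core. Of the 55 genes, 48 had a window in the RefSeq table, 78 windows in all. Among these, 66.7% held a GC box, 44.9% a CCAAT box and 11.5% a TATA box. The cyclic AMP response element was in 6.41% of them and a YY1 core in 8.97%. The median G and C of the 78 windows was 61.7%, against 52.7% over all RefSeq windows. A match describes letters and not a site in use, and none was tested against the signals below.

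Values are the deposited linear signal intensities. Each change is a difference of mean log2 signals, day 4 less day 3, with the standard error of the limma fit. A probe set is called where its adjusted p (limma, 2-sided, Benjamini-Hochberg over all 27026 probe sets tested) was under 0.05. Where the days of a called probe set are said to lie apart, this describes the values behind the call and is no separate support. Signals of different probe sets are not comparable as levels, since each has its own probes. The arrays had trimmed means of 160.4 to 162.1, and their pairwise correlations of log2 signal were 0.933 to 0.948 within day 4, 0.941 to 0.946 within day 3 and 0.924 to 0.939 between days. Day 4 replicate 1 stood apart in RNA quality: the ratio of the 3′ to the 5′ control probe set of Gapdh was 14.0 on it, against 2.43 to 3.19 on the other 5 arrays, and that of Actb was 6.71, against 2.77 to 3.84. This array held the lowest of the 6 values in 78 of the 160 members tested, or 48.8%, against 23.7% of all probe sets tested, so counts are also given without it.

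The sorted cells had the presomitic genes, and other markers moved between the days. The summed signal of 7 presomitic genes was 4804 to 5036 on day 4 and 3190 to 3450 on day 3 and its greatest part was Rspo3, the 1 called higher, while Msgn1, the gene of the gate, had 25.2, 36.2 and 38.3 on day 4, against 83.0, 57.2 and 83.4 on day 3 and was the 1 called lower. The sum of 6 epithelial genes was 3734 to 4073 on day 4 and 8785 to 9295 on day 3, with all 6 called lower. The sum of 5 pluripotency genes was 463 to 574 on day 4 and 2203 to 2421 on day 3, with 4 called lower. Of 6 neural genes Sox1, Neurog2, Tubb3 and Dcx lay under the filter on dim probe sets. The neural sum, 84.1 to 97.7 on day 4 and 444 to 524 on day 3, was mostly Nefl. Endoderm genes summed to 349 to 362 on day 4 and 569 to 625 on day 3 with 3 of 4 called lower, and cardiac and muscle genes to 413 to 456 on day 4 and 472 to 508 on day 3, most of it Actc1, with Myl7 called higher (0.94, adjusted p = 0.0123) and 0 lower. Genes of endothelium and blood summed to 471 to 660 on day 4 and 251 to 290 on day 3. Most of each sum was Kdr, the 1 called, while Pecam1 stayed under 5 on every array. For each list the exact 2-sided permutation p of the sum was 0.1, the smallest that 3 against 3 arrays allow. The part of these shifts in the results below was not tested, and in sorted bulk cells fewer cells of a type and less RNA per cell cannot be told apart.

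The splicing regulators were called in both directions. Of the 180 member probe sets 160, for 53 genes, passed the filter on dim probe sets, and 36 of them were called, or 22.5%, against 17.7% over the array. On day 4, 14 were higher, or 8.75% against 9.96% over the array, and 22 were lower, or 13.8% against 7.78%. Calls touched 21 genes, 9 with a higher probe set and 14 with a lower one, and Hnrnpdl and Hnrnpu had both. The median change was -0.12, against 0.02 for all probe sets tested, and 109 of the 160 changes were negative, or 68.1% against 47.9%. Without day 4 replicate 1 the counts were 20 higher and 25 lower, or 12.5% and 15.6% of the 160 tested. Over the array that fit called 3400 higher and 2906 lower of 27026. The member median was then -0.05, against 0.03 for all, and the counts of both directions lay closer together. Leaving out day 3 replicate 3 gave 7 higher and 13 lower, or 12.5% called against 8.47% over the array. Leaving out day 4 replicate 2 gave 7 and 17, or 15.0% called against 11.3%. Without day 4 replicate 3 there were 8 and 16, or 14.9% called against 12.5%.

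Most changes were small. Only 8 members, 5.0% against 3.94% over the array, were called with a change of at least 1 on the log2 scale: 3 probe sets of Celf2, 1 of Mbnl3, 2 of Tra2a, and 1 each of Hnrnpu and Hnrnpr. All 3 day 4 arrays lay above all 3 day 3 arrays in 23 members, or 14.4% against 20.8% over the array, and below them in 45, or 28.1% against 17.6%. Among the brightest tested probe sets of the 53 genes 3 were higher and 9 lower, or 22.6% called, and among the other 107 probe sets 11 were higher and 13 lower, or 22.4% called. Fitted with only the brightest probe set of each gene, 4 of the 53 genes were higher, or 7.55% against 11.5% over the array, and 9 were lower, or 17.0% against 10.7%.

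**Figure D1:**
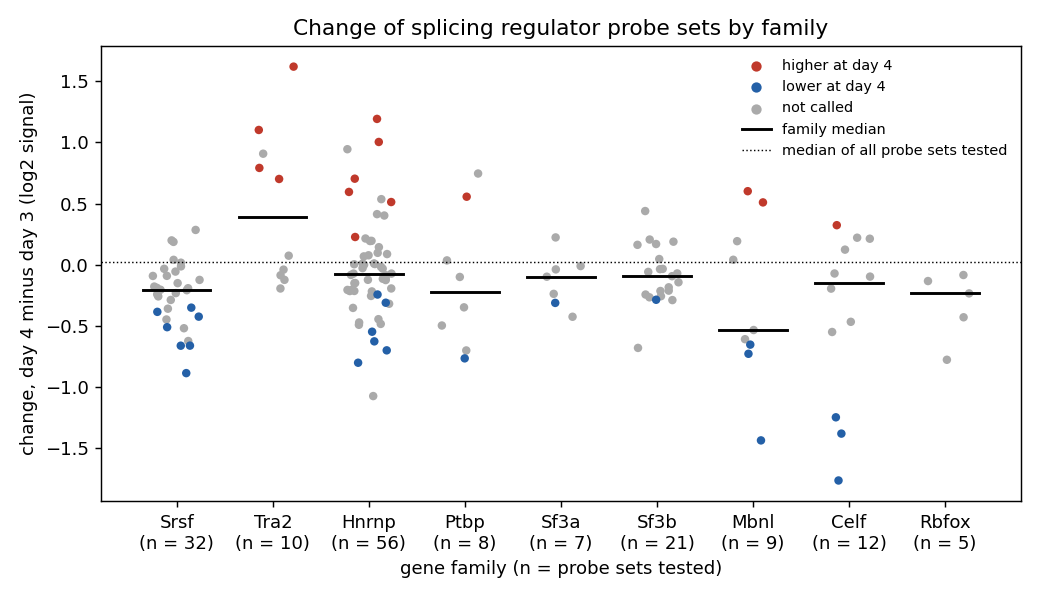
Change of each tested member probe set (day 4 minus day 3, log2 signal) by gene family, coloured by call, with the family median as a bar and the median of all probe sets tested as a dotted line. In this fit 7 Srsf probe sets are called lower and 0 higher, 4 Tra2 probe sets are called higher and 0 lower, and the greatest falls are in Celf and Mbnl; under some other settings 1 Srsf probe set was called higher.

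The Mbnl genes moved in different directions. Mbnl3, the member of the family found mostly in embryonic and proliferating cells, fell in 2 of its 3 tested probe sets on day 4. Probe set 1434678_at read 56.3, 63.5 and 47.4 on day 4, against 147, 143 and 160.0 on day 3, with mean signals of 55.7 ± 8.05 on day 4 and 149.8 ± 9.04 on day 3 (SD, n = 3 each) and a log2 change of -1.44 ± 0.16 (adjusted p = 0.000537). Probe set 1422836_at read 192, 156 and 179 on day 4, against 291, 269.9 and 311 on day 3, a change of -0.73 ± 0.12 (adjusted p = 0.00472). Day 3 lay above day 4 on every array for both, and both calls held in each alternative fit and without any 1 array. The dim 1442549_at of Mbnl3 read 22.9, 27.9 and 30.1 on day 4, against 28.9, 44.7 and 52.5 on day 3, a change of -0.61 ± 0.27 with overlapping days and no call (adjusted p = 0.159). Mbnl2, which acts in brain and other differentiated tissue, rose in 2 of its 5 tested probe sets. Its probe set 1433754_at read 276, 248 and 269 on day 4, against 159.7, 189 and 175 on day 3, means of 264 ± 14.5 on day 4 and 174 ± 14.4 on day 3 (SD, n = 3 each) and a change of 0.60 ± 0.12 (adjusted p = 0.00871). Probe set 1455827_at read 168, 170.2 and 157 on day 4, against 119, 111 and 118 on day 3, a change of 0.51 ± 0.12 (adjusted p = 0.0189), and was lost without day 3 replicate 2, day 3 replicate 3 or day 4 replicate 2, with a highest adjusted p of 0.0713. The 3 day 4 arrays were above the 3 day 3 arrays in both. The other Mbnl2 probe sets were dim and uncalled, with changes of 0.04 ± 0.18 in 1457477_at, 0.19 ± 0.35 in 1457237_at and -0.53 ± 0.69 in 1436858_at, the last being 0.35 without day 4 replicate 1. Averaged over its probe sets, Mbnl2 had a change of 0.16 and no call (adjusted p = 0.575). Mbnl1, the member best known for its sequestration in myotonic dystrophy, had 1 tested probe set of 3. It read 35.9, 47.8 and 51.3 on day 4, against 73.6, 63.0 and 73.7 on day 3, a change of -0.65 ± 0.19 (adjusted p = 0.0447), below day 3 on every array. That call was lost whichever 1 of the 6 arrays was left out, with adjusted p from 0.0524 to 0.144 and changes from -0.76 to -0.50.

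The Celf calls were for Celf2 and Celf1. Celf2, which acts in heart, brain and lymphocytes, held the greatest fall of any member. Its probe set 1423895_a_at read 50.3, 50.7 and 58.0 on day 4, against 203, 165 and 172 on day 3, so that the signal was 3.39-fold lower on day 4, with means of 53.0 ± 4.33 on day 4 and 180.2 ± 19.8 on day 3 (SD, n = 3 each), a change of -1.76 ± 0.15 and adjusted p = 0.00016. Probe set 1451154_a_at read 48.3, 41.1 and 46.9 on day 4, against 118, 121 and 116 on day 3, a change of -1.38 ± 0.15 (adjusted p = 0.000494). Probe set 1450069_a_at read 47.0, 44.3 and 32.0 on day 4, against 99.7, 96.3 and 92.6 on day 3, a change of -1.25 ± 0.19 (adjusted p = 0.00262). In all 3 each day 4 array was below each day 3 array, and the 3 calls held in each alternative that kept these probe sets and without any 1 array. All 3 are of the _a kind, whose probes match several transcripts of the same gene. The fourth tested probe set, 1444152_at, was dim and read 22.95, 18.6 and 12.7 on day 4, against 27.6, 19.1 and 27.2 on day 3, a change of -0.47 ± 0.34 (adjusted p = 0.376) with overlapping days. Celf1, the broadly expressed member, had the brightest probe set of the family, 1426407_at, which read 4678, 5342 and 5082 on day 4, against 5098, 5505 and 5246 on day 3, a change of -0.07 ± 0.07 (adjusted p = 0.5, 95% interval -0.22 to 0.08). Its probe set 1427413_a_at rose, at 1024, 1086 and 1036 on day 4, against 822, 804 and 889 on day 3, a change of 0.32 ± 0.08 (adjusted p = 0.0252), and lost its call without each array in turn except day 4 replicate 1, with a highest adjusted p of 0.0975. Celf4 and Celf5, the neuronal members, were not called, with changes of -0.10 ± 0.14 for Celf4 1426930_at (adjusted p = 0.682) and 0.22 ± 0.20 for Celf5 1434969_at (adjusted p = 0.478). Celf3 and Celf6 lay under the filter, with signals of 22.3, 4.96 and 2.61 on day 4, against 20.2, 15.3 and 24.9 on day 3 for Celf3 1452851_at.

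The Ptbp paralogues moved apart. Ptbp1, the repressor of neuronal exons in non-neural cells, fell in 1 of its 3 tested probe sets. Probe set 1424874_a_at read 238, 243 and 273 on day 4, against 439.7, 433 and 406 on day 3, means of 251 ± 19.3 on day 4 and 426 ± 17.7 on day 3 (SD, n = 3 each) and a change of -0.76 ± 0.11 (adjusted p = 0.00177), and the call held in each alternative that kept the probe set. The others read 55.7, 44.6 and 47.6 on day 4, against 56.5, 68.9 and 62.5 on day 3 for 1450443_at, a change of -0.35 ± 0.17 (adjusted p = 0.204), and 247, 219 and 205 on day 4, against 224, 205 and 226 on day 3 for 1458284_at, a change of 0.04 ± 0.12 (adjusted p = 0.868). Ptbp2, which takes over from Ptbp1 in young neurons, rose in 1 probe set. Its probe set 1423470_at read 740.4, 816 and 842 on day 4, against 656, 489.5 and 498 on day 3, a change of 0.56 ± 0.13 (adjusted p = 0.0164), and its probe set 1423471_at read 95.5, 78.9 and 67.6 on day 4, against 64.3, 39.3 and 42.7 on day 3, a change of 0.75 ± 0.23 (adjusted p = 0.0507). Day 4 was above day 3 on every array in both, though the first call was lost when replicate 2 or 3 of either day was left out, with a highest adjusted p of 0.0799. Ptbp3, known from blood cells, had 643 on day 4 replicate 1 and 912 and 959 on the other day 4 arrays, against 853 to 902 on day 3 for 1455819_at, a change of -0.10 ± 0.14 (adjusted p = 0.675) that turned to 0.08 without that array. Its dim probe sets 1424083_at and 1424084_at, also uncalled, had changes of -0.50 ± 0.31 (adjusted p = 0.3) and -0.70 ± 0.59 (adjusted p = 0.45). Of the neural markers, Nefl read 72.1, 59.5 and 55.2 on day 4, against 386, 424 and 458 on day 3. Pax6 read 11.0, 16.6 and 16.9 on day 4, against 18.3, 33.8 and 29.9 on day 3. The 4 neural genes under the filter were dim on both days. Sox1 read 0.946, 2.65 and 1.49 on day 4, against 2.21, 2.65 and 3.83 on day 3. Dcx read 2.05, 7.24 and 3.81 on day 4, against 13.5, 10.7 and 7.50 on day 3. Tubb3 read 6.48, 2.71 and 2.64 on day 4, against 22.5, 12.3 and 14.1 on day 3. Neurog2 read 5.14, 0.761 and 4.03 on day 4, against 1.41, 1.74 and 10.3 on day 3. Any link of these markers to the Ptbp changes was not tested.

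Of 11 Rbfox probe sets 5 were tested, and limma called none, against 17.7% over the array, with 0 at an unadjusted p under 0.05. The 2 tested Rbfox2 probe sets also passed the stricter filter at the 60th percentile, and those of Rbfox1 and Rbfox3 did not. Rbfox2, the member expressed in ES cells and mesoderm, read 60.8, 90.0 and 71.6 on day 4, against 85.4, 93.0 and 80.3 on day 3 for 1434938_at, a change of -0.23 ± 0.18 (adjusted p = 0.402, 95% interval -0.63 to 0.16). Rbfox1, a regulator in neurons and muscle, read 20.6, 12.4 and 19.1 on day 4, against 29.1, 19.9 and 20.5 on day 3 for 1418314_a_at, a change of -0.43 ± 0.34 (adjusted p = 0.421). Rbfox3, the neuronal antigen NeuN, read 32.5, 7.73 and 24.1 on day 4, against 29.1, 33.5 and 31.2 on day 3 for 1456149_at, a change of -0.78 ± 0.48 (adjusted p = 0.304). With array quality weights this probe set was called lower, at -1.33 (adjusted p = 0.0411), and its change was -1.19 to -0.16 when 1 array was left out. The days overlapped in all 3 genes, and the 95% intervals of their changes reached past 0 on both sides.

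**Figure D2:**
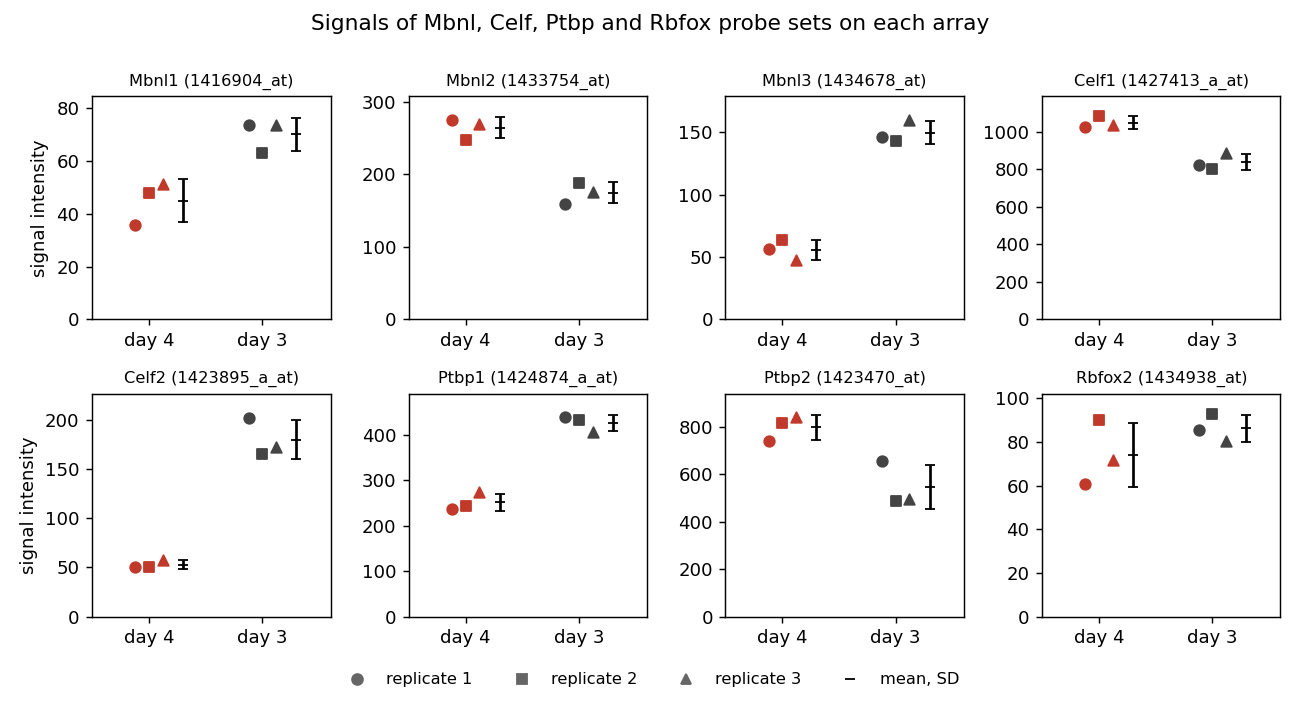
Signal intensity of 8 Mbnl, Celf, Ptbp and Rbfox probe sets on each array, day 4 left of day 3, with 1 point per replicate and the mean and SD beside the points; each panel has its own axis from 0. Each panel shows the tested probe set of its gene with the smallest p. The days are apart in Mbnl1, Mbnl3, Celf2 and Ptbp1, with day 4 lower, and in Mbnl2, Celf1 and Ptbp2, with day 4 higher. They overlap in Rbfox2. The probe sets were chosen by these same values, so this is no separate support, and other probe sets of a gene could change less.

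Of 32 tested Srsf probe sets 0 were higher, against 9.96% over the array, and 7 were lower (limma), or 21.9% against 7.78%, with 1 higher and 13 lower at an unadjusted p under 0.05. In 18 of them, or 56.2% against 17.6% over the array, all day 4 values lay below all day 3 values. The change was negative in 27, with a median of -0.21 against 0.02. Day 4 replicate 1, the array with the high 3′ to 5′ ratios, held the lowest of the 6 values in 24 of the 32. Over the array it did so in 23.7% of probe sets tested. Under quantile normalization, the stricter filter or array weights, or without day 4 replicate 1, 1 Srsf probe set was higher. With only the brightest probe set of each gene, Srsf11 1452371_at was called higher, at 0.20 (adjusted p = 0.0497). The calls came from 4 genes that act as general activators of splicing, Srsf1, Srsf2, Srsf3 and Srsf6. Without day 4 replicate 1 there were 1 higher and 7 lower with a median of -0.13, and leaving out day 3 replicate 3 gave 4 lower. Over the array these fits called 3400 higher and 2906 lower of 27026, and 1339 higher and 949 lower of 27027. Srsf6, which binds exonic enhancers, fell: 1448454_at read 1265, 1607 and 1721 on day 4, against 2417, 2403 and 2379 on day 3, a change of -0.66 ± 0.11 (adjusted p = 0.00412), and held in every alternative. Srsf1, the founding SR protein, read 626, 737 and 729 on day 4, against 1125, 1092 and 1084 on day 3 in 1430982_at, a change of -0.66 ± 0.09 (adjusted p = 0.00178). Its probe sets 1428100_at and 1453722_s_at had changes of -0.38 ± 0.10 (adjusted p = 0.0316) and -0.35 ± 0.10 (adjusted p = 0.0362). Day 4 was below day 3 on all arrays in each of these. The brightest Srsf1 probe set, 1428099_a_at, read 6369, 7802 and 7878 on day 4, against 8163, 8411 and 8439 on day 3, also apart, but with a change of -0.19 ± 0.08 that missed the threshold (adjusted p = 0.143). Averaged over its probe sets, Srsf1 had a change of -0.05 (adjusted p = 0.854).

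Srsf2, also a nuclear speckle component, read 2316, 2587 and 2623 on day 4, against 3562, 3314 and 3216 on day 3 in 1427504_s_at, a change of -0.42 ± 0.07 (adjusted p = 0.00545). Its dim probe set 1427816_at read 33.0, 49.1 and 28.1 on day 4, against 68.0, 61.1 and 69.3 on day 3, a change of -0.89 ± 0.23 (adjusted p = 0.0279) that was lost without any 1 day 3 array or day 4 replicate 3, with a highest adjusted p of 0.102. Srsf3, the smallest SR protein, read 747, 887 and 877 on day 4, against 1253, 1176 and 1139 on day 3 in 1416152_a_at, a change of -0.51 ± 0.09 (adjusted p = 0.00673). Day 4 was below day 3 on every array in all of these. The brightest Srsf3 probe set, 1434512_x_at, had a change of -0.09 ± 0.07 (adjusted p = 0.388). No probe set of Srsf4, Srsf5, Srsf9, Srsf10, Srsf11 or Srsf12 was called by limma, and 1 of Srsf9 and 1 of Srsf11 had an unadjusted p under 0.05.

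The Tra2 genes, whose proteins are SR-like activators that bind purine-rich exonic enhancers, were called higher in 4 of 10 tested probe sets and lower in 0 (limma), or 40% against 9.96% higher over the array, where 7.78% were lower. There were 5 higher and 0 lower at an unadjusted p under 0.05 and the median change was 0.39, against 0.02 for all. The higher count was 2 to 5 of 10 when 1 array was left out, against 1339 to 3400 over the array. The greatest rise of any member was in Tra2a 1442886_at, which read 642, 674 and 549 on day 4, against 179.6, 221 and 206 on day 3, 3.07-fold higher on day 4, with means of 622 ± 64.7 on day 4 and 202 ± 21.1 on day 3 (SD, n = 3 each), a change of 1.62 ± 0.12 and adjusted p = 0.000105. Tra2a 1455933_at read 203, 173 and 142 on day 4, against 62.4, 87.1 and 93.1 on day 3, a change of 1.10 ± 0.19 (adjusted p = 0.00543). Day 4 was above day 3 on every array in both. The brightest Tra2a probe set, 1454725_at, read 1990.5, 2296 and 2479 on day 4, against 2207, 2635 and 2327 on day 3, overlapping days with a change of -0.09 ± 0.10 (adjusted p = 0.598) and 0.0016 without day 4 replicate 1. Tra2a 1429680_at also rose and read 92.9, 119 and 100.04 on day 4, against 64.4, 80.6 and 49.6 on day 3, a change of 0.70 ± 0.20 (adjusted p = 0.0407). Tra2b 1441466_at read 169, 219 and 249 on day 4, against 93.8, 153 and 124 on day 3, a change of 0.79 ± 0.20 (adjusted p = 0.0277). Day 4 was above day 3 on every array in both Tra2a 1429680_at and Tra2b 1441466_at, and both calls were lost when day 3 replicate 1 or 3, or else day 4 replicate 2 or 3, was left out, with a highest adjusted p of 0.139 for Tra2a 1429680_at and 0.0883 for Tra2b. The other 4 tested Tra2b probe sets were not called, and 3 of the 5 changes were negative. The brightest, Tra2b 1427432_a_at, read 3891, 4202 and 4229.6 on day 4, against 4439, 4523 and 4449.8 on day 3, a change of -0.12 ± 0.06 (adjusted p = 0.185), and Tra2b averaged over its probe sets had a change of 0.10 (adjusted p = 0.502).

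Of 56 tested hnRNP probe sets 6 were higher and 6 lower, or 10.7% in each direction, against 9.96% higher and 7.78% lower over the array, so both shares lay near those of the array. Their median change was -0.08. Centring the arrays on their medians gave 4 higher and 8 lower, against 2346 higher and 2322 lower of 27026 over the array. Without day 4 replicate 1 the hnRNP probe sets gave 10 higher and 7 lower and a median of 0.01. That fit called 3400 higher and 2906 lower of 27026 over the array, with a median of 0.03. Hnrnpab, which binds RNA and CArG-box DNA, fell in 2 probe sets. Hnrnpab 1448144_at read 736, 749 and 774 on day 4, against 1234, 1154 and 1282 on day 3, a change of -0.70 ± 0.08 (adjusted p = 0.00075), and 1431349_at read 100.1, 101 and 112 on day 4, against 170.0, 192 and 184 on day 3, a change of -0.80 ± 0.12 (adjusted p = 0.00315). The brightest Hnrnpab probe set, 1455855_x_at, read 7994, 7845 and 6981 on day 4, against 8240.1, 7991 and 8584 on day 3, a change of -0.12 ± 0.06 (adjusted p = 0.222). The days did not overlap in the first pair and did in the last. Hnrnpc, which binds uridine tracts in introns, read 313, 422 and 448 on day 4, against 688, 535 and 591 on day 3 in 1418693_at, a change of -0.63 ± 0.15 (adjusted p = 0.0222) that was lost without day 3 replicate 1 or 3, with a highest adjusted p of 0.0848. The brightest Hnrnpc probe set, 1460240_a_at, read 6588, 5943 and 6252 on day 4, against 6562, 6015 and 6205 on day 3, overlapping days with a change of -0.00 ± 0.06, and Hnrnpc averaged over its probe sets had -0.31 (adjusted p = 0.244). Hnrnph3, of the family that binds G-rich sequence, rose: 1455491_at read 1057, 917 and 948 on day 4, against 661, 635 and 635 on day 3, a change of 0.60 ± 0.09 (adjusted p = 0.00253), and held in every alternative.

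Hnrnpr, Hnrnpu and Hnrnpdl had called probe sets beside others that moved little or the other way. Hnrnpr, a partner of the SMN protein in motor neurons, rose in 1438807_at, which read 223, 193 and 175 on day 4, against 106, 103 and 85.5 on day 3, a change of 1.0 ± 0.15 (adjusted p = 0.00245). Its 1427129_a_at read 2792, 2637 and 2783 on day 4, against 2368, 2343 and 2302 on day 3, a change of 0.23 ± 0.06 (adjusted p = 0.0357) that was lost without each array in turn except day 4 replicate 1, with a highest adjusted p of 0.137. Both Hnrnpr sets had every day 4 array above every day 3 array, while the brightest, 1437526_x_at, had a change of 0.14 ± 0.19 (adjusted p = 0.64). Hnrnpu, the scaffold attachment factor, had a risen probe set, 1434390_at, which read 346, 331 and 299.5 on day 4, against 119, 170.2 and 142 on day 3, a change of 1.19 ± 0.15 (adjusted p = 0.00115). Its bright 1423050_s_at fell, at 4138, 4397 and 4173 on day 4, against 4858, 4983 and 5198 on day 3, a change of -0.24 ± 0.06 (adjusted p = 0.0207), and lost its call when day 3 replicate 2 or 3, or else day 4 replicate 3, was left out, with a highest adjusted p of 0.106. Neither set of values overlapped between the days, so 1 gene held calls in both directions. Hnrnpdl, an RNA-binding relative of Hnrnpd, rose in 1424252_at, which read 1783, 2052 and 1987 on day 4, against 1292, 1228 and 1061 on day 3, a change of 0.70 ± 0.10 (adjusted p = 0.0017). Its 1449039_a_at fell, at 1648, 1574 and 1663 on day 4, against 2352, 2426 and 2359 on day 3, a change of -0.55 ± 0.07 (adjusted p = 0.000946). The days were apart in both. The brightest Hnrnpdl probe set, 1424251_a_at, had a change of -0.02 ± 0.05 (adjusted p = 0.862). Of its dimmer ones 1428225_s_at rose by 0.51 ± 0.15 (adjusted p = 0.0397) and 1420093_s_at changed by -0.31 ± 0.09 (adjusted p = 0.041), and neither call held throughout. That of 1428225_s_at was lost when replicate 2 or 3 of either day was left out (highest adjusted p = 0.142), and that of 1420093_s_at without each array but day 4 replicate 1 (highest adjusted p = 0.129). The other hnRNP genes with a member probe set, Hnrnpa0, Hnrnpa1, Hnrnpa2b1, Hnrnpd, Hnrnpf, Hnrnph1, Hnrnph2, Hnrnpk, Hnrnpl, Hnrnpll, Hnrnpm, Hnrnpul1 and Hnrnpul2, had no called probe set with all 6 arrays. Without day 4 replicate 1, Hnrnpa1 1436549_a_at was called higher at 0.63 (adjusted p = 0.000731), against 0.40 ± 0.17 with it, and Hnrnpa1 1455740_at at 1.0 (adjusted p = 0.0101), against 0.54 ± 0.37 with it. Hnrnpul2 1434551_at was also called higher in that fit, at 0.27 (adjusted p = 0.0328), against 0.20 with all arrays.

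The Sf3a and Sf3b genes, for subunits of the core spliceosome, had 1 called probe set each. Of 7 tested Sf3a probe sets 1 was lower and 0 higher, or 14.3% called against 17.7% over the array, and of 21 tested Sf3b probe sets 1 was lower and 0 higher, or 4.76% called (limma). At an unadjusted p under 0.05 these counts were 1 lower and 0 higher for Sf3a, and 1 lower and 3 higher for Sf3b. Sf3a2, a subunit that the U2 particle needs to join the intron, read 1649, 1739.7 and 1643 on day 4, against 1978, 2058 and 2212 on day 3 in 1455546_s_at, a change of -0.31 ± 0.07 (adjusted p = 0.0189). Sf3b4, which touches the pre-mRNA near the branch point, read 953, 904 and 884 on day 4, against 1146, 1067 and 1128 on day 3 in 1424619_at, a change of -0.29 ± 0.08 (adjusted p = 0.0357). Both were below day 3 on every day 4 array by about the same amount. The Sf3a2 call was lost when day 3 replicate 2 or 3, or else day 4 replicate 3, was left out, and the Sf3b4 call without any array but day 4 replicate 1, with highest adjusted p of 0.0996 for Sf3a2 and 0.133 for Sf3b4. The next smallest p-values were of Sf3a1 1419087_s_at and Sf3a3 1432488_a_at, with changes of -0.42 ± 0.21 (adjusted p = 0.2) and -0.24 ± 0.14 (adjusted p = 0.283), and of Sf3b3 1430075_at and Sf3b1 1418562_at, with changes of 0.44 ± 0.15 (adjusted p = 0.0819) and 0.16 ± 0.07 (adjusted p = 0.132). Sf3b1, the subunit that holds the branch point and is often mutated in myelodysplasia, had values of 2200.2, 2132 and 2187 on day 4, against 1847, 1953 and 2027 on day 3 in that probe set. The brightest Sf3b probe set, Sf3b2 1438637_x_at, had a change of -0.07 ± 0.15 (adjusted p = 0.782). Without day 4 replicate 1 the counts were 0 higher and 3 lower for Sf3a and 1 higher and 2 lower for Sf3b. That fit called 3400 higher and 2906 lower of 27026 over the array.

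**Figure D3:**
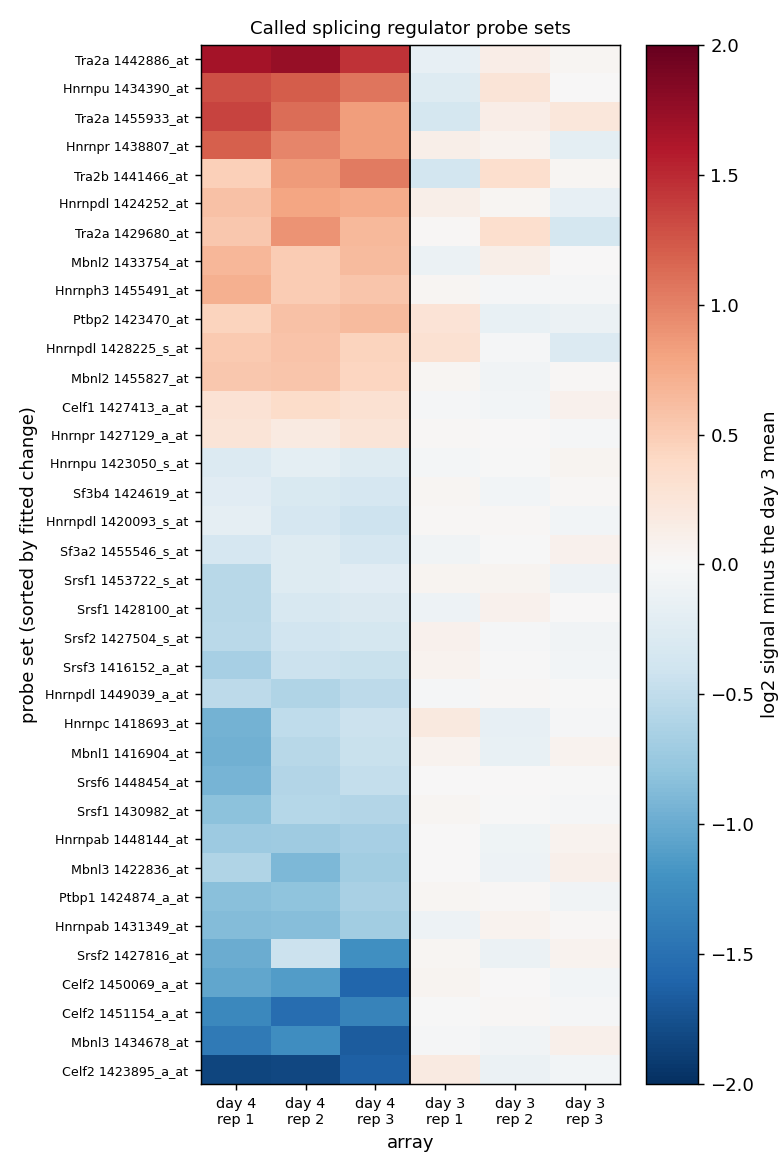
Log2 signal of the 36 called member probe sets on each array, minus the mean of the 3 day 3 arrays, with the day 4 arrays left of the day 3 arrays and rows sorted by fitted change. Tra2a 1442886_at is at the top and Celf2 1423895_a_at at the bottom, and in all 36 rows the 3 day 4 arrays lie to one side of the 3 day 3 arrays. The rows were chosen by their call on these same values, so this is no separate support.

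Unequal change between the probe sets of a gene was tested directly with the F test of limma's diffSplice over the 5711 genes with at least 2 tested probe sets. It called 7 of 40 member genes, or 17.5% against 5.48% over the array: Hnrnpdl (adjusted p = 0.000868), Tra2a (0.00967), Hnrnpr (0.0128), Srsf3 (0.0144), Celf2 (0.0252), Ptbp1 (0.0294) and Hnrnpu (0.0454). The called genes had from 3 (Ptbp1) to 7 (Hnrnpdl) tested probe sets. The array share was not matched for the number of probe sets per gene, which limits the comparison. In Hnrnpdl the probe sets ran from a fall to a rise, with changes of -0.55 ± 0.07 and 0.70 ± 0.10. In Tra2a they ran from -0.09 ± 0.10 in the brightest to 1.62 ± 0.12, while in Celf2 all 4 changes were negative and differed in size. Tra2b missed the threshold at 0.0517. This test takes the probe sets of a gene to have equal variance, and on simulated data it called more unchanged genes than its threshold allows. With weights that follow the mean signal, an alternative chosen after seeing the data, 7 of 40 member genes were called. This was 17.5% against 6.39% over the array. Of these, 5 were called by both: Tra2a (adjusted p = 7.11e-06), Hnrnpdl (3.86e-05), Ptbp1 (0.00796), Srsf3 (0.0169) and Hnrnpu (0.0327). Tra2b (0.0181) and Hnrnpc (0.0285) were called with the weights, and Celf2 (0.063) and Hnrnpr (0.0727) were not. Leaving out day 4 replicate 1, 2 or 3 gave 12, 1 and 4 of the 40 genes. Leaving out day 3 replicate 1, 2 or 3 gave 3, 2 and 1 genes. The share over all genes was not taken in these fits, so these counts cannot be set against the array. Which transcripts each probe set detects was not tested, nor was any exon.

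**Figure D4:**
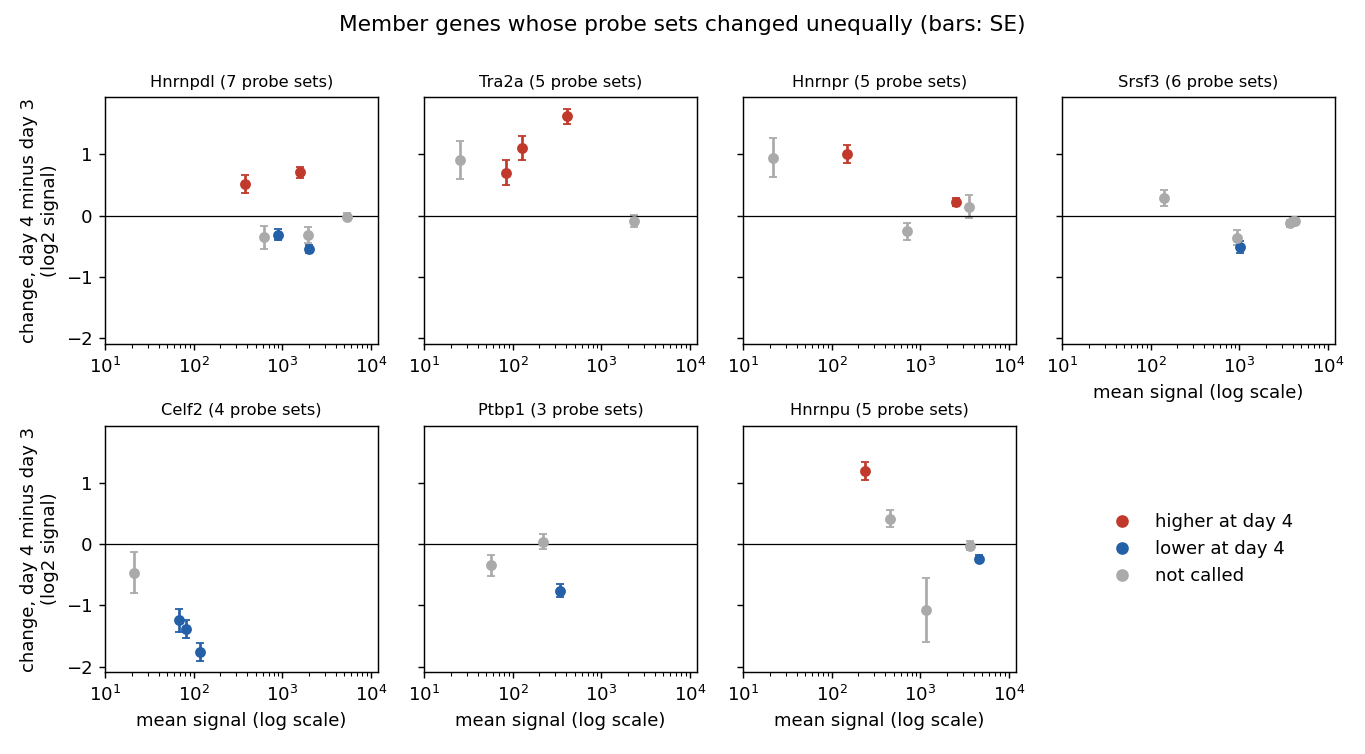
Change of each tested probe set (day 4 minus day 3, log2 signal, bars are standard errors) against its mean signal on a log axis, for the 7 member genes whose probe sets changed unequally. In Tra2a, Hnrnpu and Hnrnpr the risen probe sets with the greatest change are not the brightest, and Hnrnpdl has called probe sets on both sides of 0.

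For the rest of the splicing machinery a list of 107 such genes, from the U1, U2 and tri-snRNP proteins to SR protein kinases and other RNA-binding regulators, had 287 probe sets for 96 genes, and 247 were tested. Of these 41 were higher, or 16.6% against 9.96% over the array, and 16 were lower, or 6.48% against 7.78%, with a median change of 0.06. Without day 4 replicate 1 the counts were 60 higher and 23 lower, or 33.7% called against 23.3% over the array. Without day 3 replicate 2 they were 28 and 6, or 13.8% against 10.8%, and without day 3 replicate 3 they were 26 and 6, or 13.0% against 8.47%. With the probe sets of each gene averaged, 8 of 86 genes were higher, or 9.30%, and 7 were lower, or 8.14%. In that fit 17.4% of the list was called, against 16.1% of 11154 genes over the array. Esrp1, the regulator of epithelial exons, fell furthest among the named ones: 1454681_at read 65.9, 68.3 and 78.3 on day 4, against 255, 238 and 273 on day 3, a change of -1.85 ± 0.13 (adjusted p = 7.57e-05). Esrp1 was also 1 of the 6 epithelial markers, all of which were called lower. Rbm5, a regulator of apoptotic gene exons, rose: 1438069_a_at read 457, 474 and 448 on day 4, against 203, 235 and 222 on day 3, a change of 1.07 ± 0.10 (adjusted p = 0.000364). The days did not overlap in either. Averaged over its probe sets, Rbm5 had a change of 0.34 and no call (adjusted p = 0.0605). Rbm39 1438420_at rose by 0.78 ± 0.09 (adjusted p = 0.000618), Sfpq 1436898_at by 0.78 ± 0.10 (adjusted p = 0.00113) and Prpf4b 1455696_a_at, a kinase of the spliceosome, by 0.64 ± 0.08 (adjusted p = 0.000904). These genes also had probe sets that moved less or the other way. Prpf4b 1425498_at fell, with a change of -0.57 ± 0.13 (adjusted p = 0.016), and the uncalled Sfpq 1423796_at and 1423795_at had -0.46 ± 0.15 (adjusted p = 0.0614) and -0.28 ± 0.13 (adjusted p = 0.185). Tardbp 1423723_s_at, for the RNA-binding protein TDP-43, fell, with a change of -0.53 ± 0.06 (adjusted p = 0.000652), while Tardbp 1434419_s_at rose by 0.45 ± 0.11 (adjusted p = 0.0198). Averaged over their probe sets, Rbm39 (0.33), Tardbp (0.12), Prpf4b (0.11) and Sfpq (0.05) were not called, with adjusted p of 0.0551, 0.305, 0.409 and 0.783 in that order. Esrp2 1419977_s_at had a change of -0.14 ± 0.35 (adjusted p = 0.813) and no call, and the 3 Rbm47 probe sets lay under the filter. Qk, the quaking gene of mesoderm and glia, had 0 called of 6 tested probe sets (limma) and 2 at an unadjusted p under 0.05, with 0.01 ± 0.06 in the brightest, 1451179_a_at (adjusted p = 0.957), and -0.69 ± 0.22 in 1417073_a_at (adjusted p = 0.0631).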

How the data were processed

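Per the labels' protocols, total RNA of the sorted cells was amplified in 2 rounds to biotin-labelled cRNA, and each sample went on 1 Affymetrix array. Such amplification weighs transcripts toward their 3′ ends. The deposited values are linear signal intensities that the authors made with MAS5, per the submitters' processing notes; its version is not given in the sources used. The extraction was with Trizol or an RNeasy kit, and since the labels do not tie either to a sample it was not tested as a batch.

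Symbols came from the platform annotation: 34945 probe sets had 1 symbol, 932 had several and were left unnamed, 9160 were not listed, and 64 were controls. All 180 member symbols matched RefSeq. Probe sets with several symbols, 7 of them with a member's prefix and among them those of Hnrnpa3, and Srsf7 were not analysed here.

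The log2 signals were tested in R 4.3.3 with limma 3.58.1 (lmFit, eBayes with trend, day as the only term, 2-sided, Benjamini-Hochberg at 0.05) for non-control probe sets whose mean log2 signal was above the 40th percentile, a signal of 13.5. Unequal change used diffSplice, and sums used exact permutation tests. The scripts were tested on simulated data. With 3 arrays a day, their number limits the precision.

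The members and lists were chosen with earlier results of these data known. Named are every Mbnl, Celf, Rbfox and Ptbp gene; in the other families each called probe set with a change of at least 0.5, or the 3 with the smallest p, and the gene with the brightest probe set; genes whose probe sets changed unequally; and, of the other splicing genes, the 6 smallest p-values with Esrp1, Esrp2, Rbm47 and Qk. Further called probe sets of a named gene were added after their values were seen. Alternatives were the log offset, scaling, centring, filter, probe set rule, variance model, array weights, replicate block and leaving out each array.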

Additional observations from a re-analysis of the deposited data

How the results depend on the processing

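Counts of calls moved with the setting more than the direction of single probe sets did. In the main analysis 36 members were called, 14 higher and 22 lower, with 57 probe sets of the other splicing genes, 41 higher and 16 lower, 4795 over the array, and 7 member genes with unequal change. Array quality weights gave 55 members, 22 of them higher, 87 other splicing probe sets, 64 of them higher, 7758 over the array and 13 genes with unequal change. Without a variance trend there were 21 members, 9 higher and 12 lower, and 30 others, 22 higher and 8 lower. That fit called 3226 of 27026 over the array, or 11.9%, near the 13.1% of members and 12.1% of the others. With the brightest probe set of each gene, which leaves fewer tests, there were 13 of 53 members, 4 higher and 9 lower. In that fit 25 of 91 others were called, 16 higher and 9 lower, and 2729 of 12285 over the array. With the probe sets of each gene averaged there were 9 of 49 members, 4 higher and 5 lower. That fit called 15 of 86 others, 8 higher and 7 lower, and 1796 of 11154 over the array. Without the _x, _s and _a probe sets there were 23 of 94 members, 11 of them lower, and 9 lower others. That fit called 3653 of 20466 over the array, or 17.8%, against 24.5% of members. In it 2 of 25 member genes had unequal change, and without the filter 3 of 43 had. For unequal change, a share over all genes was taken only in the main fit and in the fit weighted by mean signal. Leaving out 1 array gave 20 to 45 members (7 to 20 higher, 13 to 25 lower), 2288 to 6306 over the array, 32 to 83 others (26 to 60 higher, 6 to 23 lower) and 1 to 12 genes with unequal change. With the replicate number as a block, 42 members, 4 genes with unequal change and 4819 probe sets over the array were called, but the numbers do not pair the arrays, since same-numbered arrays correlated at 0.06, 0.01 and -0.00 in their deviations. Of 58 named probe sets 39 were called, and 14 of these kept their call in all fits that held them. Over 923 comparisons 801 kept direction and call, 97 lost the call, 10 gained one and 15 changed sign. Averaging the probe sets of a gene changed the sign of Celf1 1427413_a_at to -0.000299, of Hnrnpdl 1424252_at and 1428225_s_at to -0.0469, of Hnrnpu 1423050_s_at to 0.0526, of Tra2a 1454725_at to 0.68 and of Tardbp to 0.12, as it mixes probe sets that moved apart. The others that changed sign were not called: Ptbp3 (0.0164), Sf3b2 (0.0214) and Hnrnpdl 1424251_a_at (0.0035) with array weights; and, over the fits without 1 array, Ptbp3 (-0.21 to 0.0809), Sf3b2 (-0.18 to 0.11), Hnrnpdl 1424251_a_at (-0.031 to 0.0095) and Tra2a 1454725_at (-0.16 to 0.0016), each positive without day 4 replicate 1, Esrp2 (-0.41 to 0.0219), positive without day 4 replicate 2, and Hnrnpr 1437526_x_at (-0.0376 to 0.36), negative without day 4 replicate 3. Apart from these constructions the cause was not tested. Dim probe sets limit the Rbfox genes most, since 6 of 11 lay under the filter.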

Other observations

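In 7 members day 4 replicate 1 was under 0.5 times both other day 4 arrays, or 4.38% of those tested against 3.07% over the array. They were probe sets of Srsf10, Celf1, Hnrnpab, Mbnl2, Srsf12, Hnrnpu and Hnrnpa1, named after their values were seen, and none was called with all 6 arrays. With day 4 replicate 1 left out, Hnrnpa1 1455740_at was called higher, at 1.0 (adjusted p = 0.0101), and Hnrnpu 1450849_at lower, at -0.29 (adjusted p = 0.0343), against -1.07 with it. Hnrnpu 1450849_at read 229.7 on that array and 1150.5 and 1197 on the other day 4 arrays, against 1295, 1572 and 1447 on day 3. Hnrnpab 1426114_at read 636 on it and 1819 and 1488 on the other day 4 arrays, against 1711, 1707 and 1634 on day 3. Srsf10 1423982_at read 1080.4 on it and 2287 and 2412 on the other day 4 arrays, against 2014, 2285 and 2095 on day 3. These members were picked by a low value on day 4 replicate 1, which is also the array with the high 3′ to 5′ ratios of Gapdh and Actb. That the low values lie on it therefore follows from the choice. The part of RNA quality or of the amplification in them was not tested.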
